A study of Homo sapiens with 24 samples.

Results

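The genes described are 10 that are used as readouts of epithelial-mesenchymal transition (EMT), taken by symbol from the deposited gene table of the lung cancer line HCC827. They are the transcription factors ZEB1, ZEB2, SNAI1, SNAI2 and TWIST1, the cadherins CDH1, CDH2 and CDH3, the intermediate filament gene VIM and the matrix gene FN1. All 10 were found among the 19932 genes used, and all 10 passed the filter on low counts with 15211 genes in total. HCC827 is an established human non-small cell lung cancer line that carries an activating EGFR mutation and depends on EGFR signalling. The 18 libraries used cover a Parental, a DTP and an acquired resistant (Resistant) state, where DTP is the field's term for drug-tolerant persister cells. In each state 3 libraries carry the treatment EV, an empty vector, and 3 carry OC, overexpression of cATF6, a circular RNA. The labels give the EV libraries the genotype WT and the OC libraries cATF6 overexpression. They give neither the drug nor the dose behind the DTP and Resistant states, nor whether a state came from 1 clone, nor whether the libraries of a group came from separate cultures. The p-values below therefore measure the spread between these libraries, which may be technical. The labels also give the Resistant libraries a library series of their own, so resistance and library series cannot be told apart, while Parental and DTP libraries share a series.

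EMT is a reversible program in which epithelial cells loosen their cell-cell junctions and take on a migratory, matrix-producing state. The ZEB, SNAI and TWIST factors are its classical drivers; the ZEB and SNAI factors bind E-box sequences in the promoters of epithelial genes such as CDH1 and repress them. E-cadherin loss, N-cadherin gain, vimentin and fibronectin are the usual readouts, and EMT-like changes are well known in EGFR-mutant lung cancer cells that survive EGFR inhibitors.

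RefSeq promoter windows on GRCh38.p14, from 250 bases before to 50 bases after a transcription start, were at hand for 5 of the 10 genes (ZEB1 with 7 windows, CDH2 with 2, and ZEB2, VIM and FN1 with 1 each). The others were SNAI1, SNAI2, TWIST1, CDH1 and CDH3. The windows were searched on both strands for the E-box CAGGTG, the core to which ZEB and SNAI factors bind, which reads CACCTG on the other strand, and for TGACGTCA, the palindromic cAMP response element (CRE). Of 35116 RefSeq windows of 300 bases, 20.6% hold the E-box and 1.85% the CRE. The FN1 window and 1 of the ZEB1 windows are shown, with matches in capitals. They were taken as the window with the most matches for each gene that had any, without regard to expression. The FN1 window, minus strand of chr2:215436019-215436318, holds the CRE, which begins 183 bases before the start, and no E-box. The ZEB1 window, plus strand of chr10:31318966-31319265, holds 3 E-boxes, which begin 242 and 85 bases before and 33 bases after the start.
FN1: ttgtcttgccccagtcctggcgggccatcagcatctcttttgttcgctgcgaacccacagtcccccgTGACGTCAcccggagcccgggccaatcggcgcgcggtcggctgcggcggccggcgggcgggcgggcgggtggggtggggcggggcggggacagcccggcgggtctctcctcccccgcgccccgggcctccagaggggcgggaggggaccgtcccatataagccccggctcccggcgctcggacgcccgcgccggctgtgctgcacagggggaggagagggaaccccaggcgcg
ZEB1: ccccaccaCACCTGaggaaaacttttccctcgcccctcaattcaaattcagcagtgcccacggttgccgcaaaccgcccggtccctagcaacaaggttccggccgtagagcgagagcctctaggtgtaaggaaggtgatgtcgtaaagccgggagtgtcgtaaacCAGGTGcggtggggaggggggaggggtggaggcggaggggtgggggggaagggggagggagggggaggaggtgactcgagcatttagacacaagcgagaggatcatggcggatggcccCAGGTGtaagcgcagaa
Another ZEB1 window holds 1 E-box, and these letters are not in the windows of ZEB2, VIM or CDH2. A match is a description of the letters and was not tested as a binding site.

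The gene counts came to between 30075330 and 45068508 per library. The OC label was checked on ATF6, the host gene of cATF6, whose mean scaled count stood at 18075 in Parental OC against 2933 without overexpression, at 20859 against 3279 in DTP cells and at 32123 against 2094 in Resistant cells. Gene counts do not separate circular from linear transcripts. Keratins 8 and 18 and EPCAM were present in every library, as in an epithelial line. The Resistant libraries went against the label of a lung line in part: NKX2-1, the lung lineage factor, had 2541 scaled counts in Parental EV and 24.7 in Resistant EV, NAPSA 6019 and 22.9, SLC34A2 1141 and 0, and EGFR 201170 and 26165. Of the 11 markers of a lung adenocarcinoma line, 5 were higher in Resistant EV than in Parental EV, among them KRT8 (6.60-fold) and KRT18 (4.69-fold), and 5 were lower. Among all genes 38.5% were higher and 43.7% lower, so these counts are near the background and are no result about the list. Their summed level was 441184 to 446674 in Parental EV and 862763 to 890373 in Resistant EV. The first DTP EV library stands apart from the other DTP EV libraries, with a chi-square per degree of freedom of 56.7 and 56.0 against them and 17.2 between the other two. Some results that rest on it are given with and without it, others only with it. The DTP EV rises of ZEB1, ZEB2, TWIST1, CDH2, VIM and FN1 over Parental EV are described below with it. When single libraries were left out, this library among them, the DTP EV rise ran from 1.41 to 2.02 for ZEB1 on the log2 scale. It ran from 2.50 to 3.39 for ZEB2, from 3.83 to 4.31 for VIM and from 1.30 to 1.63 for FN1. These genes, TWIST1 and CDH2 still passed the limma test each time.

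**Figure D1:**
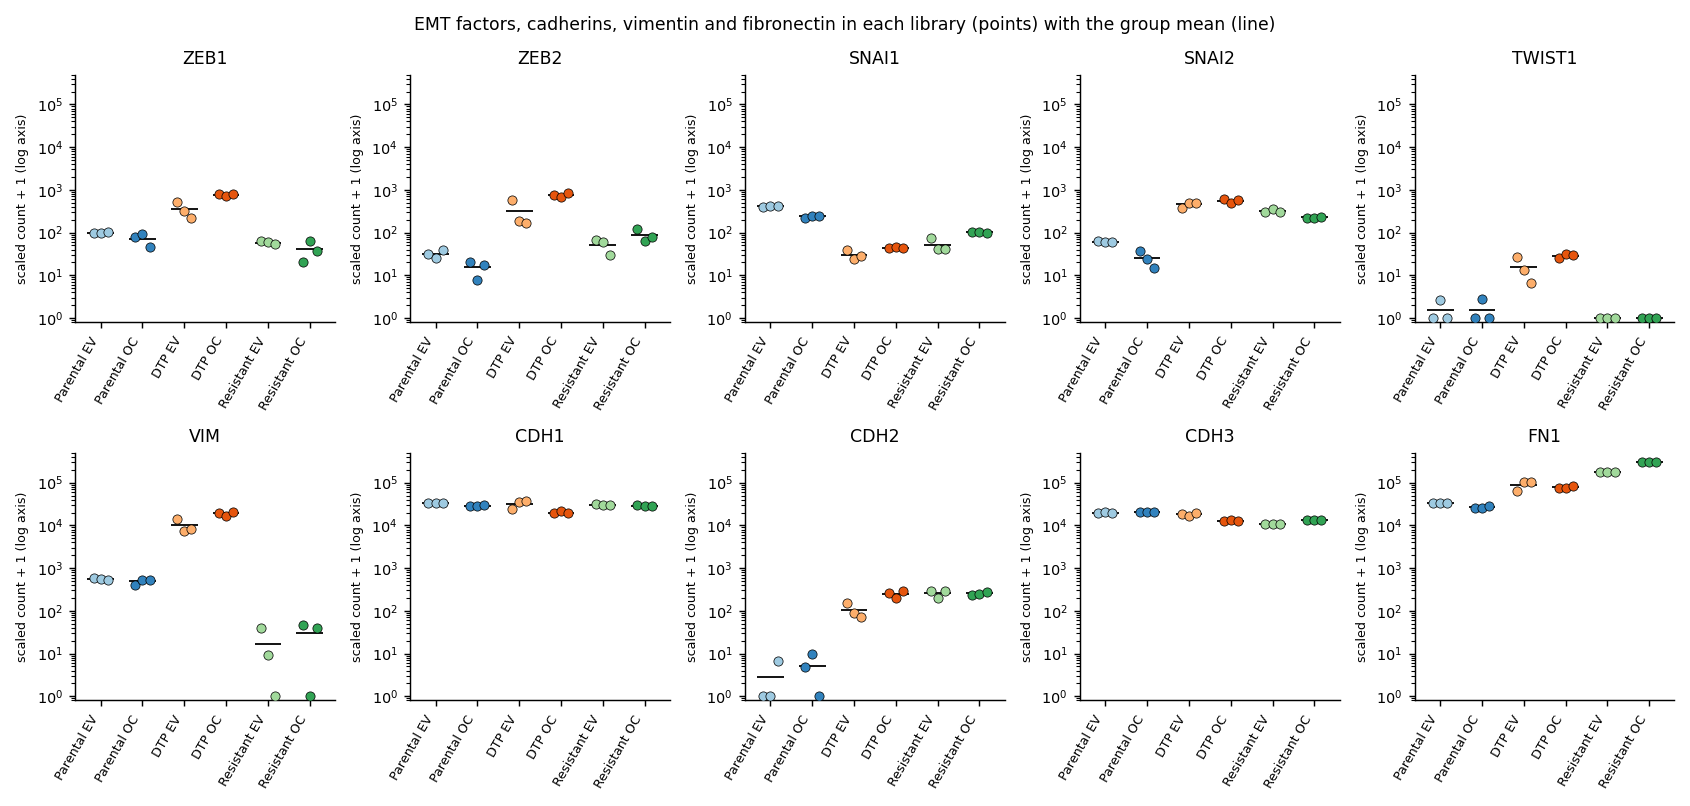
Scaled counts plus 1 (log axis) of the 10 genes in each of the 18 libraries (points) with the mean of each group (line), for Parental, DTP and Resistant cells with EV or OC. VIM runs from 0 in single Resistant libraries to 20801 in a DTP OC library, while every CDH1 value lies between 19144 and 36873.

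ZEB1 and ZEB2, zinc finger repressors of epithelial genes, were highest in the DTP cells. ZEB1 had scaled counts of 98.7, 96.6 and 102 in the Parental EV libraries, 520, 313 and 223 in DTP EV, and 61.5, 58.3 and 51.9 in Resistant EV. The 3 groups did not overlap. ZEB1 rose 3.33-fold from Parental EV to DTP EV (log2 change 1.73 ± 0.36 SE, n = 3 in each group, limma adjusted p = 6e-04) and was 5.72-fold lower in Resistant EV than in DTP EV (adjusted p = 6.42e-06, limma). Against Parental EV the Resistant EV level was lower by 0.78 on the log2 scale without passing the test (95% interval -1.55 to -0.02, limma adjusted p = 0.0551). It passed with total count scaling (-1.01, limma adjusted p = 0.0159) and in a fit of these groups alone (-0.77, adjusted p = 0.00327). ZEB2 had 30.2, 24.8 and 38.0 scaled counts in Parental EV and 588, 185 and 170 in DTP EV. Its Resistant EV libraries held 64.3, 59.5 and 28.99 and overlapped Parental EV. ZEB2 rose 8.42-fold in DTP EV (log2 change 3.07 ± 0.46 SE, limma adjusted p = 2.33e-05), while Resistant EV against Parental EV gave 0.64 (95% interval -0.33 to 1.61, adjusted p = 0.204). ZEB1 and ZEB2 each overlap antisense genes in the annotation (ZEB1-AS1 and ZEB2-AS1), and the strand setting of the counting is not given in the sources used here. TWIST1, VIM, CDH1, CDH2 and CDH3 also overlap genes on the opposite strand, while SNAI1, SNAI2 and FN1 do not. In bulk libraries, fewer cells of a kind and less RNA per cell cannot be told apart, here and below.

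SNAI1 and SNAI2, the Snail and Slug repressors, moved in opposite directions from Parental to DTP cells. SNAI1 had 388, 420 and 429 scaled counts in Parental EV, against 37.5, 22.8 and 28.0 in DTP EV and 72.7, 40.1 and 39.9 in Resistant EV. The Parental EV libraries were all above the libraries of the other states. SNAI1 fell 13.8-fold in DTP EV (log2 change -3.79 ± 0.22 SE, limma adjusted p = 5.3e-10) and 8.29-fold in Resistant EV (adjusted p = 1.1e-09, limma). SNAI2 had 62.4, 59.0 and 57.9 in Parental EV, 379, 496 and 492 in DTP EV, and 306, 356 and 297 in Resistant EV, with no overlap between groups. SNAI2 rose 7.46-fold in DTP EV (log2 change 2.90 ± 0.24 SE, limma adjusted p = 2.61e-08) and 5.26-fold in Resistant EV (adjusted p = 5.82e-08). The difference between Resistant EV and DTP EV did not pass (log2 -0.50, 95% interval -1.004 to -0.0042, limma adjusted p = 0.0594). It did without the first DTP EV library (log2 -0.64, limma adjusted p = 0.0334), with total count scaling (-0.77, adjusted p = 0.0061), with voom (adjusted p = 0.00192) and in a fit of these groups alone (adjusted p = 0.0205).

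TWIST1, a basic helix-loop-helix factor, was found at low counts in the DTP libraries and hardly elsewhere. Its scaled counts were 25.7, 12.5 and 5.60 in DTP EV and 24.3, 30.99 and 28.6 in DTP OC. The 3 Parental EV libraries held 2 reads in all, as did the 3 Parental OC libraries, and the 6 Resistant libraries held 0. Against a floor of 3 counts per library, TWIST1 was at least 4.35-fold lower in Resistant EV than in DTP EV and at least 8.91-fold lower in Resistant OC than in DTP OC (limma adjusted p = 1.51e-05 and 6.69e-07). It was higher in DTP EV than in Parental EV (adjusted p = 0.00014, limma). No fold is given there, since the Parental groups lie at the floor, and none between Parental and Resistant cells. TWIST1 passed the filter on low counts only through the DTP libraries and so had to differ.

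CDH1, which encodes E-cadherin of the adherens junction, did not pass the test between states in the EV libraries when all libraries were fitted, but did under other settings. Its scaled counts were 32651, 32934 and 33258 in Parental EV, 24491, 36115 and 36873 in DTP EV, and 30963, 29487 and 30272 in Resistant EV. The first DTP EV library lay below all other EV libraries and the other DTP EV libraries above them. The change was -0.04 in DTP EV (95% interval -0.27 to 0.18, limma adjusted p = 0.746) and -0.12 in Resistant EV (95% interval -0.35 to 0.10, limma adjusted p = 0.281). Without the first DTP EV library the DTP value turned to a rise of 0.15 that passed the test (limma adjusted p = 0.00867), and the Resistant EV value against DTP EV became -0.28 (adjusted p = 2.4e-05). In Resistant EV against Parental EV CDH1 passed as lower with total count scaling (-0.36, limma adjusted p = 0.00431), with quantile normalization (-0.40, adjusted p = 0.00663) and in a fit of these groups alone (-0.11, adjusted p = 0.00237). Total count scaling moves the median of all genes to -0.33 there, from -0.10. Against DTP EV, Resistant EV passed as lower with quantile normalization (-0.49, limma adjusted p = 0.00136) and total count scaling (-0.35, adjusted p = 0.00537).

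CDH3, which encodes P-cadherin, stepped down from Parental to Resistant cells. Its scaled counts were 20061, 20175 and 19784 in Parental EV, 18138, 16976 and 19464 in DTP EV, and 10989, 10540 and 10727 in Resistant EV. The groups did not overlap. CDH3 fell 1.86-fold in Resistant EV against Parental EV (log2 change -0.90 ± 0.04 SE, limma adjusted p = 5.6e-12). The smaller fall in DTP EV (log2 -0.14 ± 0.04 SE, limma adjusted p = 0.0129) no longer passed under quantile normalization (-0.04, adjusted p = 0.55), total count scaling (-0.11, adjusted p = 0.0593), with only the groups compared (adjusted p = 0.0994) or without the second DTP EV library (adjusted p = 0.0878).

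CDH2, which encodes N-cadherin, was close to absent from Parental cells and present in the others. The Parental EV libraries held 0, 0 and 5.69 scaled counts, the DTP EV libraries 156, 88.2 and 69.4, and the Resistant EV libraries 287, 200.3 and 287. Parental libraries lay below all DTP and Resistant libraries. CDH2 passed the filter on low counts only through the DTP and Resistant libraries and so had to differ from Parental cells. It was higher in DTP EV (limma adjusted p = 3.86e-06) and in Resistant EV (adjusted p = 8.56e-08) than in Parental EV. The fitted log2 values of 5.72 and 7.08 depend on the pseudocount of 1 added before the log, as the Parental EV libraries held 6 reads in all. Resistant EV was higher than DTP EV by 1.36 on the log2 scale without passing the test (95% interval -0.16 to 2.88, limma adjusted p = 0.0917), and these groups did not overlap. The difference passed with quantile normalization (1.73, limma adjusted p = 0.0318), with voom (1.36, adjusted p = 0.000402) and in a fit of these groups alone (adjusted p = 0.00615).

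VIM, which encodes the filament protein vimentin, was high in DTP cells and near 0 in Resistant cells. The Parental EV libraries held 579, 555 and 527 scaled counts, the DTP EV libraries 14304, 7396 and 8393, and the Resistant EV libraries 38.2, 8.50 and 0. No state overlapped another. VIM rose 17.3-fold in DTP EV (log2 change 4.12 ± 1.20 SE, limma adjusted p = 0.00783). It was lower in Resistant EV than in Parental EV (log2 -6.27, adjusted p = 0.00014, limma) and than in DTP EV (log2 -10.38, adjusted p = 5.04e-07, limma). The Resistant values rest on 41, 7 and 0 reads and depend on the pseudocount. The wide error of VIM comes with an SD of 2.67 on the log2 scale among Resistant EV libraries, against 0.07 in Parental EV. With a pseudocount of 0.1 the rise in DTP EV missed the threshold (log2 4.12, limma adjusted p = 0.0961). VIM overlaps the antisense gene VIM-AS1 in the annotation.

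FN1, which encodes the matrix glycoprotein fibronectin, rose from Parental to DTP to Resistant cells. Its scaled counts were 33115, 33308 and 33288 in Parental EV, 65394, 102446 and 102925 in DTP EV, and 182742, 173369 and 176890 in Resistant EV. The states did not overlap. FN1 rose 2.66-fold in DTP EV (log2 change 1.41 ± 0.12 SE, limma adjusted p = 3.87e-08) and 5.34-fold in Resistant EV (2.42 ± 0.12 SE, adjusted p = 5.12e-12). Resistant EV stood 2.01-fold above DTP EV (adjusted p = 6.04e-07, limma). The summed level of 11 fibroblast markers was 548 to 576 scaled counts in Parental EV, 1384 to 1516 in DTP EV and 11636 to 12169 in Resistant EV. It was mostly COL1A1 in Parental and DTP EV (538 and 1238) and PDGFRB in Resistant EV (11178), where COL1A1 had 627 and THY1 and MFAP5 were at 0. Of the 8 fibroblast markers tested, 3 were higher and 0 lower in DTP EV than in Parental EV, beside 28.7% and 28.3% of all genes. In Resistant EV 1 was higher and 1 lower than in Parental EV, beside 38.5% and 43.7% of all genes. Against DTP EV 1 was higher and 4 lower, beside 37.5% and 43.1%. COL3A1 (1.14 scaled counts), LUM (4.74) and PDGFRB (2.06) were near 0 in Parental EV. They passed the filter on low counts only through groups where they were higher, so these counts are no result about the markers. In Parental and DTP EV libraries THY1 and PRRX1 were at 0. The leukocyte marker sum in Resistant EV, 45288 to 47243 against 5496 to 5697 in Parental EV, was mostly CD68 with 44524. CSF1R (120 scaled counts in Parental EV and 1026 in Resistant EV) and CD14 (51.7 and 401) were higher as well. Of the 5 leukocyte markers tested 3 were higher and 0 lower, beside 38.5% higher and 43.7% lower among all genes. The T cell marker CD3D and the B cell marker MS4A1 were at 0 in Resistant EV. The part of these markers in the FN1 and CDH2 results was not tested.

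Counted over the 10 genes, 9 passed the limma test in DTP EV against Parental EV, 7 higher and 2 lower, beside 56.9% of all 15211 genes tested (28.7% higher and 28.3% lower). TWIST1 and CDH2 are among the higher ones and had to differ, given the filter. Of the other 8 genes 7 passed, 5 higher and 2 lower, with a median log2 change of 1.57 against 0 for all genes. In Resistant EV against Parental EV 6 of 10 passed, 3 higher and 3 lower, beside 82.2% of all genes (38.5% higher and 43.7% lower). Without TWIST1 and CDH2 it was 5 of 8, with a median of -0.45 against -0.10 for all genes. In Resistant EV against DTP EV 7 passed, 2 higher and 5 lower, beside 80.6% of all genes (37.5% higher and 43.1% lower), and 6 of 8 without TWIST1 and CDH2. The shares in the Resistant comparisons are near or below the background and are no result about these genes. DTP EV and Resistant EV are each set against the same Parental EV libraries. Side by side, among the genes called in both comparisons, SNAI1 (-3.79 and -3.05), SNAI2 (2.90 and 2.40), CDH2 (5.72 and 7.08), CDH3 (-0.14 and -0.90) and FN1 (1.41 and 2.42) had the same sign in DTP and Resistant EV, and VIM (4.12 and -6.27) had opposite signs. ZEB1 (1.73 and -0.78), ZEB2 (3.07 and 0.64) and CDH1 (-0.04 and -0.12) were not called in Resistant EV, and TWIST1 has no fold there.

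**Figure D2:**
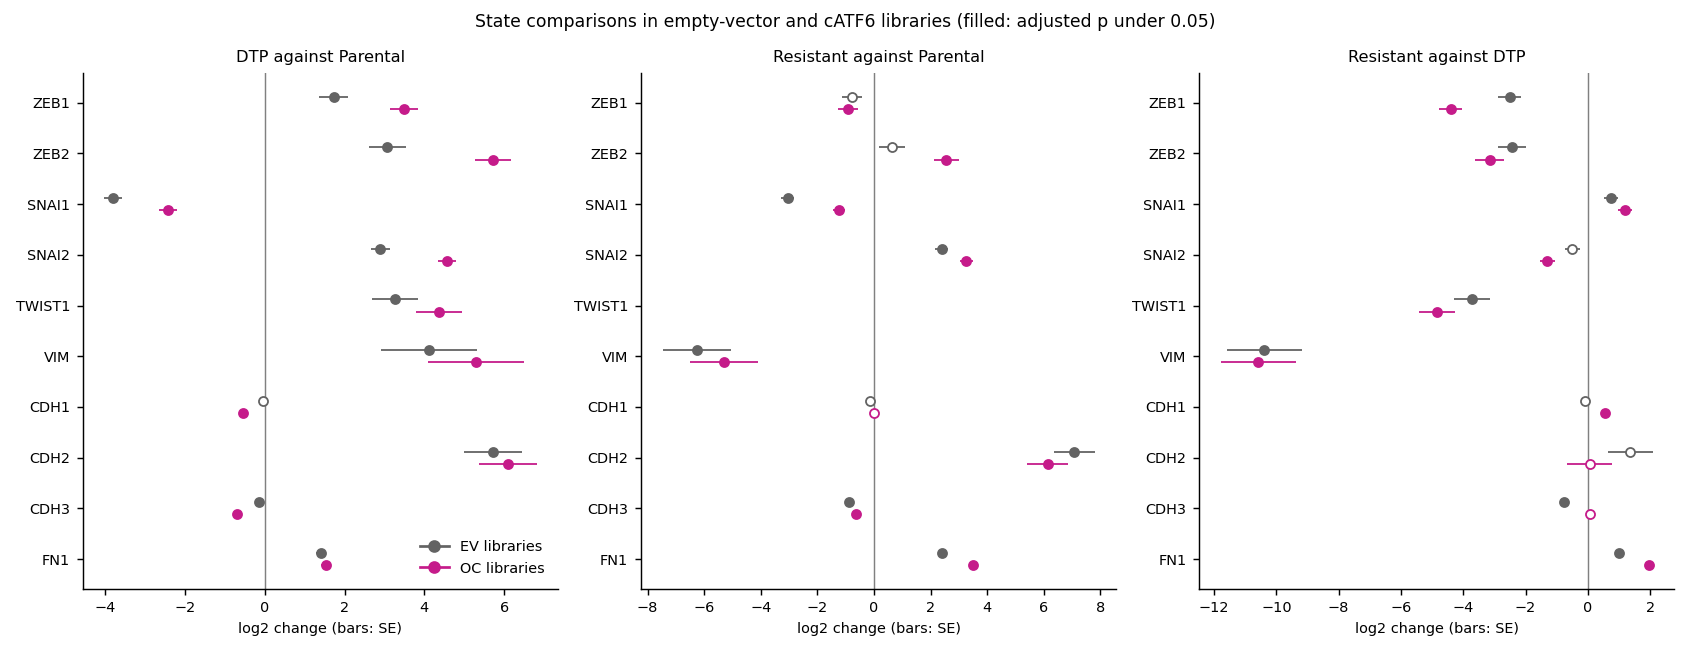
Log2 changes with their SE of the 10 genes between states, in EV libraries (grey) and OC libraries (magenta); filled points passed limma adjusted p under 0.05. VIM lies at 4.12 in DTP against Parental EV and at -10.38 in Resistant against DTP EV; TWIST1 is left out where both groups lie at the floor, and values of CDH2, VIM and TWIST1 against near-empty groups depend on the pseudocount.

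Overexpression of cATF6 was followed by lower SNAI1 and SNAI2 in Parental cells. SNAI1 had 219, 249 and 249 scaled counts in Parental OC, below all Parental EV libraries, and fell 1.72-fold (log2 change -0.79 ± 0.22 SE, limma adjusted p = 0.0256). The call was lost when any 1 of the 6 Parental libraries was left out (limma adjusted p from 0.06 to 0.104). SNAI2 had 36.4, 22.6 and 13.8 in Parental OC, again below all Parental EV libraries, and fell 2.58-fold (log2 -1.37 ± 0.24 SE, limma adjusted p = 0.000909). These were the only 2 of the 10 genes that passed, both lower, beside 14% of all genes (5.99% higher and 8% lower). The count is near that share and is no result about the 10 genes as a set. An unadjusted limma p under 0.05 was found for 4. The share of all genes at that threshold is not given here, so that count is no result about the 10 genes. FN1 had 25715, 26046 and 28020 in Parental OC, all below Parental EV, and its log2 value of -0.32 did not pass in the fit of all libraries (95% interval -0.57 to -0.07, limma adjusted p = 0.0847). It did in a fit of the 6 Parental libraries alone (limma adjusted p = 1.19e-05), as did ZEB2 (-1.15, adjusted p = 0.0351) and CDH1 (-0.19, adjusted p = 0.000102). VIM (410, 523 and 534) and CDH2 (3.94, 8.71 and 0) overlapped Parental EV.

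In DTP cells the same overexpression came with higher ZEB1 and ZEB2 and lower CDH1 and CDH3. ZEB1 had 792, 725 and 797 scaled counts in DTP OC and rose 2.32-fold over DTP EV (log2 1.22 ± 0.36 SE, limma adjusted p = 0.0279). ZEB2 had 738, 687 and 826 and rose 2.82-fold (log2 1.50 ± 0.46 SE, limma adjusted p = 0.0319). Every DTP OC library lay above every DTP EV library for both genes. CDH1 had 19144, 21241 and 19216 scaled counts in DTP OC, below all DTP EV libraries, and fell 1.61-fold (log2 -0.69 ± 0.10 SE, limma adjusted p = 0.000503). CDH3 had 12494, 13235 and 12542 and fell 1.42-fold (log2 -0.51 ± 0.04 SE, limma adjusted p = 7.66e-06), also without overlap. These 4 of 10 genes stand beside 18.3% of all genes (9.49% higher and 8.77% lower), and the median over the 8 genes other than TWIST1 and CDH2 was 0.44 against 0.02 for all genes.

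The ZEB calls in DTP cells depend on the libraries used. Both held without the first DTP EV library, where the log2 values were largest (1.54 for ZEB1 and 2.07 for ZEB2). Leaving out DTP EV library 2 or 3 or any DTP OC library took ZEB1 to limma adjusted p values from 0.0548 to 0.148 and ZEB2 from 0.0599 to 0.157, and a fit of the 6 DTP libraries alone gave 0.0591 and 0.0862. In that fit CDH3 was the gene of the 10 that passed, as CDH1 gave -0.71 with an adjusted p of 0.0591. CDH1 passed when any single DTP library was left out, the first DTP EV library among them. Its log2 value then ran from -0.88 to -0.58 (limma adjusted p up to 0.00473). VIM had 19560, 16951 and 20801 scaled counts in DTP OC, above all DTP EV libraries. Its log2 value of 0.99 did not pass in the fit of all libraries (95% interval -1.57 to 3.54, limma adjusted p = 0.629), but it did without the 6 Resistant libraries (0.97, adjusted p = 0.0058) and with voom weights (0.98, adjusted p = 0.000994). CDH2 had 260, 201 and 286 in DTP OC, above all DTP EV libraries, and did not pass (log2 1.31, 95% interval -0.21 to 2.84, limma adjusted p = 0.227), but it did with voom (1.29, adjusted p = 0.00423). SNAI1 (42.5, 45.6 and 42.9) did not pass in the fit of all libraries either (log2 0.58, adjusted p = 0.0829, limma). It did without the first DTP EV library (0.76, limma adjusted p = 0.0183) and without the 6 Resistant libraries (0.56, adjusted p = 0.0351). SNAI2 (610, 504 and 564) gave 0.30 with a limma adjusted p of 0.42, and TWIST1 gave 1.11 with a limma adjusted p of 0.202. FN1 had 75695, 74388 and 81576, within the range of DTP EV, and gave -0.20 (limma adjusted p = 0.285). Without the first DTP EV library FN1 fell by 0.42 on the log2 scale (limma adjusted p = 7.16e-06).

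**Figure D3:**
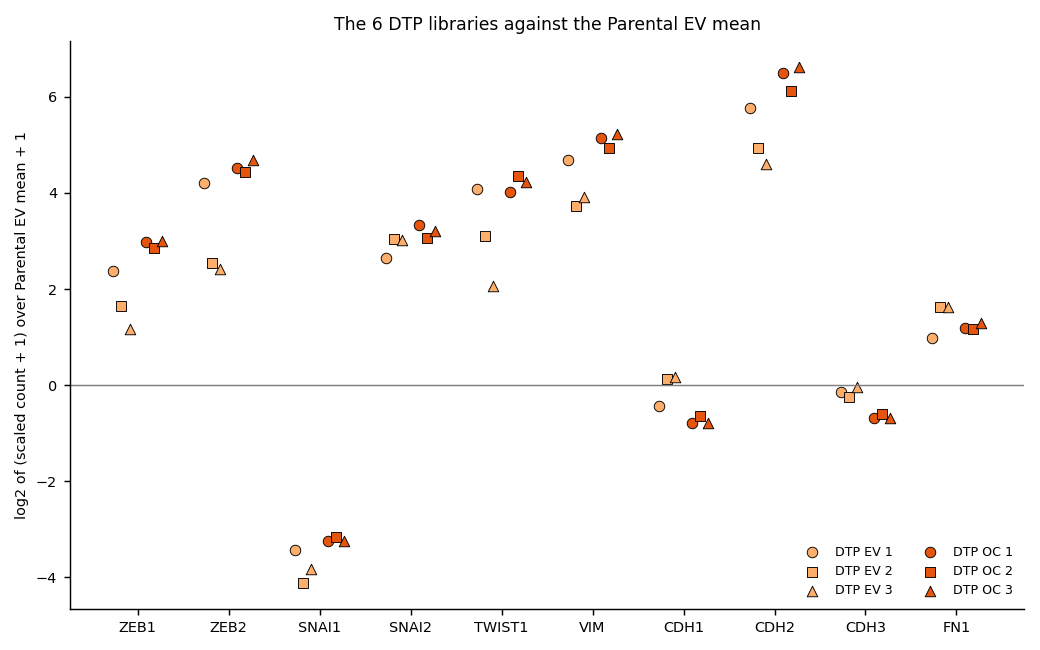
Log2 of the scaled count plus 1 in each of the 6 DTP libraries over the Parental EV mean plus 1, with symbols for the library number (numbers were not taken to pair EV with OC libraries). The first DTP EV library (pale circle) lies toward the DTP OC libraries for ZEB1, ZEB2, SNAI1, TWIST1, VIM, CDH1, CDH2 and FN1.

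The first DTP EV library differed from the mean of the other DTP EV libraries by 3.32-fold for ZEB2, 2.84-fold for TWIST1, 1.98-fold for CDH2, 1.94-fold for ZEB1 and 1.81-fold for VIM, all higher. For FN1 the others were 1.57-fold and for CDH1 1.49-fold above it. CDH3, at 0.995 of the others, hardly differed. With it left out, 6 of the 10 genes passed in DTP OC against DTP EV in place of 4. The share of all genes called without it is not given here.

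In Resistant cells overexpression came with higher FN1, SNAI1 and CDH3. FN1 had 297325, 300004 and 303002 scaled counts in Resistant OC, above all Resistant EV libraries, and rose 1.69-fold (log2 0.76 ± 0.12 SE, limma adjusted p = 0.000112). SNAI1 had 104, 101 and 97.5 and rose 2.04-fold (log2 1.03 ± 0.22 SE, limma adjusted p = 0.00172). CDH3 had 13534, 13165 and 13305 and rose 1.24-fold (log2 0.31 ± 0.04 SE, limma adjusted p = 4.41e-05). None of these groups overlapped with Resistant EV. The 3 genes of 10 stand beside 36.7% of all genes (16.3% higher and 20.4% lower). That count is near the share of all genes and is no result about the 10 genes as a set. CDH1 had 29871, 29085 and 28798 and gave -0.05 (95% interval -0.27 to 0.17, limma adjusted p = 0.779), and CDH2 had 240.1, 252 and 276 and gave 0.00 with a limma adjusted p of 1. SNAI2 had 221, 221 and 234, below all Resistant EV libraries, with a log2 value of -0.50 that did not pass (limma adjusted p = 0.113). It passed with voom (-0.49, limma adjusted p = 0.0173) and in a fit of these groups alone (-0.47, adjusted p = 0.0296). ZEB1 (19.0, 62.9 and 36.7), ZEB2 (123, 61.7 and 76.0) and VIM (46.5, 0 and 39.4) overlapped Resistant EV and did not pass. Without the second Resistant OC library ZEB1 fell by 1.08 (limma adjusted p = 0.0249) and VIM rose by 2.61 (adjusted p = 0.0406), so that 5 genes passed. The share of all genes called in that fit is not given here. The library left out is the Resistant OC library with 0 VIM counts. VIM turned to -0.63 without the third Resistant EV library. It gave -0.17 and -0.06 without the first or the third Resistant OC library. The fibroblast marker sum was 11636 to 12169 in Resistant EV and 4612 to 5334 in Resistant OC, and its part in the FN1 result was not tested.

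**Figure D4:**
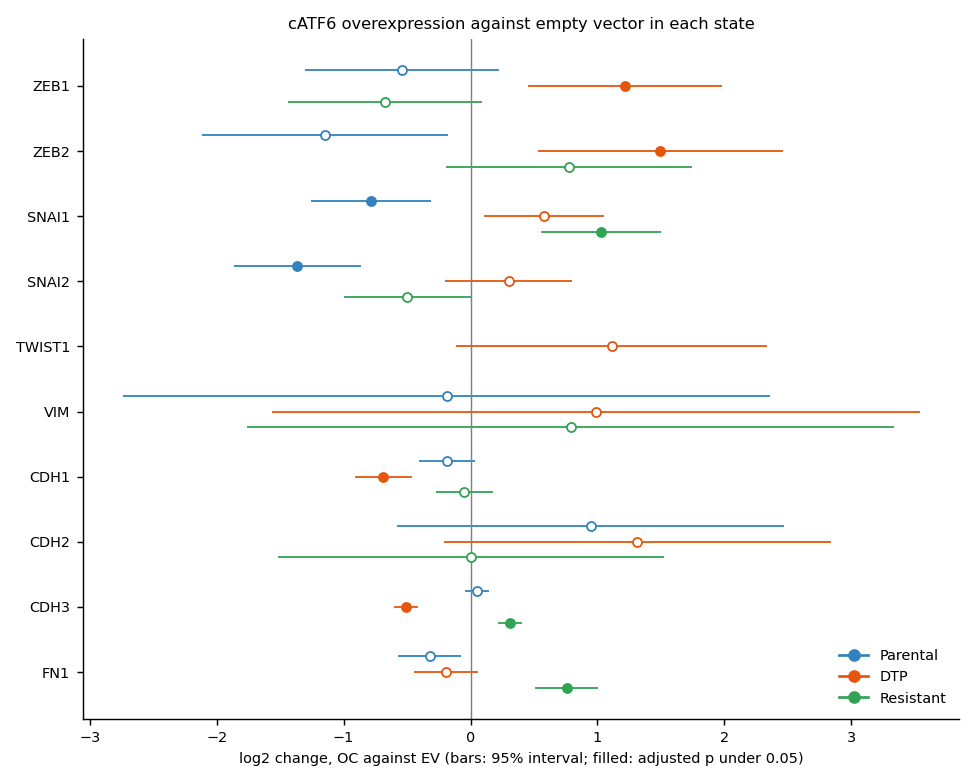
Log2 change of OC against EV with its 95% interval for the 10 genes in Parental (blue), DTP (orange) and Resistant cells (green); filled points passed limma adjusted p under 0.05. CDH3 lies at -0.51 in DTP and 0.31 in Resistant cells, and SNAI1 at -0.79 in Parental and 1.03 in Resistant cells; TWIST1 is shown for DTP cells.

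The OC effect itself differed between states for several genes, by a test of the difference in the same fit. Between DTP and Parental cells 6 of 10 genes passed, 4 higher and 2 lower, beside 9.89% of all genes (5.45% higher and 4.44% lower). ZEB1 (difference in log2 change 1.76), ZEB2 (2.64), SNAI1 (1.37) and SNAI2 (1.67) were higher with OC in DTP relative to Parental cells, and CDH1 (-0.50) and CDH3 (-0.56) were lower. The limma adjusted p ran from 7.26e-05 for CDH3 to 0.0423 for CDH1. The ZEB1 and CDH1 differences missed the threshold in most fits that left out 1 library (up to 0.104 and 0.102), and CDH1 also without the Resistant libraries (limma adjusted p = 0.0724) and under quantile normalization (0.0714). Without the mean-variance trend ZEB1 (limma adjusted p = 0.0584) and CDH1 (adjusted p = 0.0751) were lost, and with voom ZEB2 (2.66, adjusted p = 0.11). VIM passed without the Resistant libraries (1.17, limma adjusted p = 0.0199). Between Resistant and Parental cells 4 passed, all higher, beside 30.2% of all genes (14.2% higher): ZEB2 (1.92), SNAI1 (1.81), CDH3 (0.26) and FN1 (1.08). The ZEB2 value was lost without any of 5 single libraries, Parental EV 1 or 3, Parental OC 2, Resistant EV 3 or Resistant OC 1 (limma adjusted p from 0.0565 to 0.0915), and with voom (adjusted p = 0.25). Between Resistant and DTP cells CDH1 (0.64), CDH3 (0.82) and FN1 (0.95) were higher and ZEB1 (-1.89) was lower, 4 of 10 beside 30.4% of all genes (13.7% higher and 16.7% lower), with limma adjusted p from 1.67e-07 to 0.00996. SNAI2 passed there as lower with voom (-0.80, limma adjusted p = 0.00393), as did CDH2 (-1.30, adjusted p = 0.013). The counts of 4 of 10 in the Resistant comparisons lie near the shares of all genes and are no result about the 10 genes as a set. These comparisons share libraries, so their values are not independent of each other.

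Among OC libraries the states differed as follows. From Parental OC to DTP OC all 10 genes passed the limma test, 7 higher and 3 lower, beside 53.2% of all genes (28% higher and 25.2% lower), of which TWIST1 and CDH2 had to differ. The other 8 genes, 5 higher and 3 lower, had a median of 2.51 against 0.00 for all genes. ZEB1 rose 11.2-fold, SNAI2 23.7-fold, VIM 39.1-fold and FN1 2.90-fold, and ZEB2 rose 52.6-fold from 19.7, 6.97 and 16.6 scaled counts in Parental OC. SNAI1 fell 5.36-fold, CDH3 1.62-fold and CDH1 1.46-fold (limma adjusted p = 0.000348 for CDH1). From Parental OC to Resistant OC 8 passed, 4 higher and 4 lower, beside 81.9% of all genes (38.4% higher and 43.5% lower). ZEB2, which did not pass in EV libraries, rose 5.91-fold (limma adjusted p = 6.52e-05), and FN1 rose 11.3-fold (adjusted p = 3.96e-14). ZEB1 fell 1.89-fold (limma adjusted p = 0.0276), a call lost without the first or second Parental OC or the first Resistant OC library (adjusted p from 0.0746 to 0.184), under quantile normalization (0.203), with voom (0.111) and in a fit of these groups alone (0.102). CDH1 gave 0.01 (95% interval -0.21 to 0.24, limma adjusted p = 0.901). From DTP OC to Resistant OC 8 passed, 3 higher and 5 lower, beside 81.6% of all genes (37.3% higher and 44.3% lower), with CDH1 1.47-fold higher (limma adjusted p = 0.000109). That CDH1 call was lost under quantile normalization (0.23, adjusted p = 0.0944). CDH2 (0.05) and CDH3 (0.06) did not pass. CDH3 passed as higher with RLE size factors (0.11, limma adjusted p = 0.0289), and it was lower in Resistant OC under quantile normalization (-0.33, adjusted p = 1.2e-05) and total count scaling (-0.19, adjusted p = 0.001). The count of 8 of 10 in each Resistant comparison lies near the share of all genes and is no result about the 10 genes.

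For a rough comparison between genes, levels were divided by the length of the union of all exons of each gene in GENCODE. In Parental EV the scaled count per kilobase was highest for CDH1 (5334 ± 49.2 SD, n = 3), followed by CDH3 (3208 ± 32.3) and FN1 (1920 ± 6.14). In DTP EV CDH1 (5260 ± 1124) and FN1 (5213 ± 1244) did not differ beyond their spread, and CDH3 (2917 ± 199.6) and VIM (1945 ± 724) followed. In DTP OC the order was FN1 (4460 ± 221), VIM (3704 ± 381), CDH1 (3216 ± 193) and CDH3 (2046 ± 66.5). In Resistant OC FN1 reached 17332 ± 164 per kilobase, while CDH1 stood at 4736 ± 90.0 and VIM at 5.55 ± 4.86. The transcription factors were far lower: SNAI1 led them in Parental EV (245 ± 12.9 per kilobase) and SNAI2 in DTP EV (134 ± 19.5) and Resistant EV (94.2 ± 9.33), and TWIST1 was last in every group. CDH2 reached 52.2 ± 10.1 per kilobase in Resistant EV, against 4896 ± 119.6 for CDH1. The exon length comes from another annotation than the counts. It joins the exons of all transcripts of a gene (17315 bases for FN1, 5158 for VIM and 1686 for SNAI1). It can therefore exceed the length of a single mRNA, by factors that differ between genes. These values are approximate, and the orders between genes depend on that length.

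Within single genes the order of the groups by level was as follows. ZEB1 ran from DTP OC through DTP EV and Parental EV to Parental OC, Resistant EV and Resistant OC, and the last 3 overlapped as neighbours. VIM ran from DTP OC through DTP EV to Parental and then Resistant groups, with overlap within Parental and within Resistant cells. FN1 ran from Resistant OC through Resistant EV to DTP EV and DTP OC, which overlapped, and then Parental EV and Parental OC. For CDH1 the first 5 groups, from Parental EV to Parental OC, each overlapped the next, and DTP OC lay below all of them. CDH2 overlapped among Resistant EV, Resistant OC and DTP OC. For CDH3 the only neighbours that overlapped were Resistant OC and DTP OC.

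Related gene lists were counted with the 10 genes left out. In DTP EV against Parental EV 23 of 41 tested mesenchymal matrix and cytoskeleton genes rose and 6 fell (median log2 0.64, all genes 0), beside 28.7% higher and 28.3% lower among all genes. THBS1, thrombospondin, rose 23.8-fold (limma adjusted p = 2e-14) and TPM1, a tropomyosin, 3.56-fold. Of 23 TGF-beta pathway genes 12 rose and 6 fell (median 0.54), with the ligand TGFB2 up 9.46-fold and the pathway inhibitor PMEPA1 up 12.96-fold. Of 31 epithelial adhesion and keratin genes 11 rose and 9 fell (median 0.03), among them CLDN1, a claudin of tight junctions (3.92-fold higher), and KRT19 (1.75-fold lower). Of 16 epithelial-state transcription and splicing factors 4 rose and 8 fell, with GRHL3 up 7.27-fold and OVOL1 and KLF4 down 2.36-fold and 2.17-fold. Among 17 other EMT transcription factors 7 rose, SOX4 by 3.65-fold, and 2 fell. Of 13 other cadherins 6 rose and 3 fell, and CDH5, the endothelial cadherin, rose 13.4-fold from 19.6 scaled counts. Of 13 genes of the cadherin-catenin complex 3 rose and 4 fell, with CTNNB1, which encodes beta-catenin, down 1.58-fold. The adhesion and cadherin-catenin counts lie near the shares of all genes and are no result about those lists. Of 13 fibronectin and vimentin partners 7 rose and 4 fell, and TGM2, a transglutaminase that crosslinks fibronectin, fell 4.52-fold.

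The Resistant cells gave other counts. In Resistant EV against Parental EV 20 of 31 epithelial adhesion and keratin genes rose and 8 fell (median 0.52, all genes -0.10), beside 38.5% higher and 43.7% lower among all genes. KRT8 rose 6.60-fold and DSG2, a desmosomal cadherin, fell 4.24-fold. Epithelial-state factors rose in 12 of 16 and fell in 4, with OVOL1 up 4.55-fold and KLF4 up 3.07-fold. Mesenchymal genes rose in 14 and fell in 14 of 41 (median -0.32, or -0.23 with a gene at 0 set at its bound): TNC, tenascin, fell 52.2-fold and TPM1 5.15-fold. TGF-beta pathway genes rose in 17 of 23 and fell in 5 (median 1.36), among them LTBP1 and LTBP2, which bind latent TGF-beta, up 26.8-fold and 11.7-fold. Of the cadherin-catenin complex 4 rose and 7 fell of 13, with NECTIN2 up 8.30-fold and CTNNA1, alpha-catenin, down 6.16-fold. Of the other cadherins 5 rose and 6 fell of 13, and DSC3, DSG1 and CDH17 had 0 counts in Resistant EV against 238, 47.9 and 62.9 scaled counts in Parental EV. Of the other EMT factors 9 rose and 7 fell of 17, with SOX9 up 19.3-fold and KLF8 up 13.02-fold. The counts of mesenchymal genes, other cadherins and other EMT factors lie near those shares and are no result about the lists. Of the fibronectin and vimentin partners 6 rose and 6 fell of 13, also near them, with FBLN1, fibulin, at 83.6 and 53556 scaled counts in Parental and Resistant EV.

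With OC in DTP cells, 21 of 31 epithelial adhesion and keratin genes fell and 0 rose (median -0.44, all genes 0.02), beside 9.49% higher and 8.77% lower among all genes. TJP3 fell 1.72-fold, RAB25 1.58-fold and LLGL2, a polarity gene, 1.55-fold. Epithelial-state factors fell in 11 of 16 and rose in 0 (median -0.43), with FOXA1 down 1.60-fold, OVOL1 1.53-fold and ELF3 1.42-fold. Mesenchymal genes rose in 16 of 41 and fell in 0 (median 0.66), with COL5A1 up 2.39-fold, COL6A1 1.85-fold and NT5E 1.83-fold. Without the first DTP EV library the counts were 1 higher and 27 lower for the adhesion genes, 12 lower for the factors, and 23 higher and 1 lower for the mesenchymal genes. In a fit of the 6 DTP libraries alone the adhesion genes and factors called lower dropped to 2 and 1, and the mesenchymal genes called higher to 0. Shares of all genes called in these refits are not given here, so the refit counts have no background beside them. Of 23 TGF-beta pathway genes 5 rose and 3 fell, of 13 cadherin-catenin genes 1 rose and 4 fell, and of 17 other EMT factors 3 rose, HMGA2 by 1.51-fold, and 3 fell. The fibroblast marker sum was 1384 to 1516 in DTP EV and 1587 to 1781 in DTP OC, with THY1 and PRRX1 at 0 in both, and its part in the mesenchymal count was not tested.

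In Parental cells with OC 3 mesenchymal genes rose and 2 fell of 41, beside 5.99% higher and 8% lower among all genes. Of the others, 2 adhesion genes rose and 3 fell of 31, and 4 of 16 epithelial-state factors fell, KLF4 by 1.52-fold. The mesenchymal and adhesion counts lie near the shares of all genes and are no result about those lists. Of the TGF-beta pathway genes 8 of 23 fell and 2 rose, with SMAD7 down 1.67-fold and BAMBI 1.95-fold. In a fit of the 6 Parental libraries alone the mesenchymal counts were 10 and 4 and the adhesion counts 6 and 11. The share of all genes called in that fit is not given here, so these counts have no background beside them. In Resistant cells with OC 8 of 41 mesenchymal genes rose and 8 fell, beside 16.3% higher and 20.4% lower among all genes, so that this count is near the background. ITGA5, the alpha chain of the fibronectin receptor, rose 2.53-fold and CALD1 fell 2.00-fold. Of 31 adhesion genes 7 rose and 7 fell, also near it, and CLDN1 fell 2.02-fold. Of the TGF-beta pathway genes 6 rose and 12 fell of 23, with the activin subunit INHBA up 3.77-fold.

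**Figure D5:**
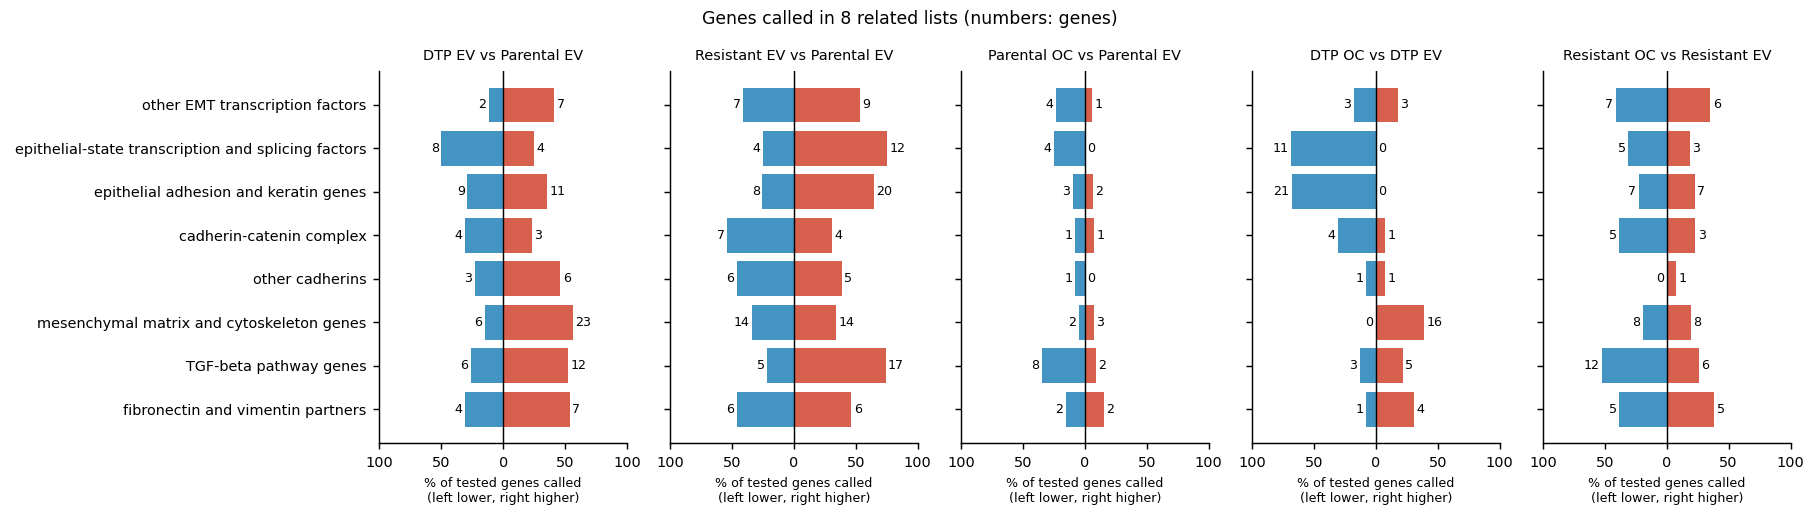
Share of tested genes of 8 related lists called higher (red, right) or lower (blue, left) at limma adjusted p under 0.05 in 5 comparisons, with the number of genes at each bar. In DTP OC against DTP EV 21 adhesion genes and 11 epithelial-state factors were lower and 0 higher, and 16 mesenchymal genes were higher and 0 lower.

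The genes whose log2 levels ran most like those of CDH1 over the 18 libraries were IL10RB (Pearson r 0.93), PSD4 (0.93) and IFT57 (0.89). For VIM they were SESN3 (0.98), ANKS3 (0.97) and SPARC (0.97), and for FN1 SGCE, GRAMD1A and SRGAP3 (0.99 each). These values are descriptions, since the libraries share states, series and depth.

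The circRNA table covers HCC827 cells of genotype WT treated for 10 days with DMSO or osimertinib (Osi), an EGFR inhibitor, with 3 libraries each. It lists 2997 circRNAs, of which 1 has a host among the 10 genes. This is hsa_circZEB1_008, given at chromosome 10, 31661947 to 31676195 on the plus strand (hg19, the build in the submitters' processing notes). It had 0, 0 and 1 back-splice reads in the DMSO libraries and 0, 2 and 0 in the Osi libraries. It did not reach the filter for the test, which 871 circRNAs passed, of which 0% were called. The authors' deposited table gives it a log10 fold change of 0.0587 with an adjusted p-value of 0.903. A difference in ZEB1 back-splice reads was not detectable at this depth.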

How the data were processed

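The authors' deposited gene table holds log10 values of (count + 1) per gene; undoing the log10 gave whole numbers in every cell (tolerance 1e-06). Per the submitters' processing notes, FastQC, STAR, featureCounts and MultiQC were used with build hg19; versions, strand setting and circRNA caller are not given in the sources used here. Per the labels' protocols, libraries were strand-specific, from RNA depleted of ribosomal RNA. Of 22549 lines, 2557 named NewGene and 15 symbols that stand in 4 lines each were left out; 6 columns of per-sample values could not be tied to samples and were not used.

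Library sizes were adjusted by a trimmed mean of M-values (trims 0.3 and 0.05). The test was limma-trend (limma 3.58.1, R 4.3.3) on the log2 of the scaled count after adding 1, with all 18 libraries in 1 model, over genes that reached 10 counts in 3 or more libraries. Tests were two-sided; adjusted p under 0.05 (Benjamini-Hochberg, over all genes tested) was called. Folds are the fitted log2 values on a linear scale and understate the change of low genes. A scaled count is a count divided by its library's size factor. The authors' deposited p-value of a circRNA is theirs. The circRNA counts were tested likewise (at least 2 reads in at least 3 of 6 libraries).

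The test was tried on simulated data. The rule for named genes took the 10 members in every comparison, up to 3 called genes with the smallest p of each other list, the 3 genes most like CDH1, VIM and FN1, and member circRNAs; not all are printed, and some results are not reported here. Alternatives were scalings, filter, pseudocount, voom, trend, replicate block, groups fitted and libraries left out. The members, lists and tests were chosen with earlier results of these data known.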

Additional observations from a re-analysis of the deposited data

Results flagged for a closer look

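A test of the difference between the OC effects of 2 states, from the same limma fit, drew attention to 14 values. For DTP minus Parental cells, the difference in log2 change was 1.76 for ZEB1, 2.64 for ZEB2, 1.37 for SNAI1, 1.67 for SNAI2, -0.50 for CDH1 and -0.56 for CDH3. For Resistant minus Parental cells it was 1.92 for ZEB2, 1.81 for SNAI1, 0.26 for CDH3 and 1.08 for FN1. For Resistant minus DTP cells it was -1.89 for ZEB1, 0.64 for CDH1, 0.82 for CDH3 and 0.95 for FN1. CDH3 is the gene that appears in all 3 comparisons.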

How the results depend on the processing

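Counts of called genes moved in 3 comparisons. For OC against EV in Parental cells 2 genes became 5 with only the groups compared and 1 without any single library (lowest 1, highest 1). In DTP cells 4 became 1 with only the groups compared and between 2 and 6 with a library left out, 6 without the first DTP EV library. In Resistant cells 3 became between 3 and 5, 5 without the second Resistant OC library. The other counts stayed within 1.5 times. Shares of all genes called under these settings are not given here. Adding the replicate block left the counts at 9, 6, 7, 10, 8, 8, 2, 4, 3, 6, 4, 4 and 0. Of 45 same-number pairs of libraries 4 correlated over 0.1. Pairs of unlike number were not compared, so these values cannot decide whether the numbers pair libraries.

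Signs turned as follows; apart from those said to pass above, these values passed no test. Under quantile normalization CDH1 gave 0.10 in DTP EV against Parental EV, -0.18 in Resistant OC against Parental OC and 0.0077 in Resistant OC against EV, and CDH3 gave -0.33 in Resistant OC against DTP OC. Under total count scaling CDH1 gave -0.21 in Resistant OC against Parental OC, and in Resistant OC against DTP OC CDH2 gave -0.20 and CDH3 -0.19. With voom CDH2 gave -0.0050 in Resistant OC against EV and -0.0027 for the OC effect in DTP minus Parental cells, where a pseudocount of 0.1 gave -0.66.

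With 1 library left out, CDH1 ran from -0.15 to 0.15 in DTP EV against Parental EV, from -0.28 to 0.020 in Resistant EV against DTP EV and from -0.0032 to 0.032 in Resistant OC against Parental OC. CDH2 ran from -0.092 to 0.16 in Resistant OC against DTP OC, from -0.16 to 0.10 in Resistant OC against EV and from -0.56 to 1.08 for DTP minus Parental. VIM ran from -0.63 to 2.61 in Resistant OC against EV, from -0.45 to 2.80 for Resistant minus Parental and from -1.62 to 1.63 for Resistant minus DTP. FN1 ran from -0.10 to 0.23 for DTP minus Parental and ZEB1 from -0.54 to 0.30 for Resistant minus Parental. The cause was not tested. Low counts limit TWIST1, CDH2 and Resistant VIM.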
